A study of Schizosaccharomyces pombe with 12 samples.

Results

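Small nucleolar RNAs (snoRNAs) were followed in fission yeast, Schizosaccharomyces pombe. They were taken as the genes of the deposited count table whose identifier starts with SPSNORNA, which gave 53 of 12683 genes. The libraries came from 3 strains, the wild type 972 (WT) and strains labelled ubp8 and ubp16, named after a pair of ubiquitin protease genes that the study's design text calls deleted. All strains grew in YE5S medium at 30 °C to an OD600 of 0.5 and were sampled untreated or after 30 min in 1 mM hydrogen peroxide. Each of the 6 groups had 2 libraries, made from polyadenylated RNA with a stranded mRNA kit. Nothing in the labels ties the paired libraries to separate cultures. The p-values therefore measure only how these samples spread, which may be technical.

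SnoRNAs guide the chemical modification and cleavage of ribosomal RNA in the nucleolus. Those of the box C/D class carry a C box near the 5′ end and a D box near the 3′ end and direct 2′-O-methylation with the methyltransferase fibrillarin. Those of the box H/ACA class end in an ACA a few bases before the 3′ end and direct pseudouridylation with the synthase Cbf5. A mature snoRNA has no poly(A) tail. The nuclear polyadenylation machinery can add a tail to its precursors, which the nuclear exosome then trims or degrades, and in fission yeast the poly(A)-binding protein Pab2 takes part in this step. A library made from polyadenylated RNA therefore reads the tailed molecules. More snoRNA and a larger tailed share of it cannot be told apart here, nor can fewer cells and less RNA per cell.

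The 53 genes fell into long genes of 142 to 488 nt (21 genes) and short genes of 47 to 112 nt (32 genes), a division at 130 nt that was chosen with the values known. RefSeq (assembly ASM294v3) names 19 of the 21 long genes as box H/ACA. The other two are snR30, the fission yeast U17 RNA, which is of the H/ACA class, and sno16, to which RefSeq gives no class. An ACA with at least 1 base after it lay in the last 8 bases of 15 of the 21 long genes and of 1 of the 32 short genes. The letters of a D box, CTGA, lay in the last 20 bases of 29 short genes, and the letters of a C box, TGATGA, in the first 20 bases of 18. The sequences of members on which the results turn are shown from RefSeq. In the first 4, which are long, capitals mark the ACA where the search found it. In the last 4, which are short, capitals mark the C box and then the D box. Of snR30 only the last 40 bases are given.
snR30, last 40 bases: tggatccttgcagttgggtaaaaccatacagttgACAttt
snR95: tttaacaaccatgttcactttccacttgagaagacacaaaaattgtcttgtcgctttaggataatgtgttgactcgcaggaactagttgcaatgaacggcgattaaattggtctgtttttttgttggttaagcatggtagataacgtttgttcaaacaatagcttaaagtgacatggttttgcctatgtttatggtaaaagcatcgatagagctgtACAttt
sno16: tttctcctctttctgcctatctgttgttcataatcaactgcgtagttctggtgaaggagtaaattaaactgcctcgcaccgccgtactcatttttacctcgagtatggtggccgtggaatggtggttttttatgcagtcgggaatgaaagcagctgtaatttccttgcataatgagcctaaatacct
snR93: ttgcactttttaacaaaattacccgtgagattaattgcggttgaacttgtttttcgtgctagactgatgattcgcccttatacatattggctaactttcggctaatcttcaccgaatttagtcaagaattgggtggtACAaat
snr79: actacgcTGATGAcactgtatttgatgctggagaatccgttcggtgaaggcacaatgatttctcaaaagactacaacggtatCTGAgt
snoU14: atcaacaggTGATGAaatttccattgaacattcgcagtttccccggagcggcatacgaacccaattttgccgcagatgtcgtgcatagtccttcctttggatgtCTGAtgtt
snoR69: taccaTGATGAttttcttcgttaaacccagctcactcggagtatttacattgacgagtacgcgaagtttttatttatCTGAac
snoR69b: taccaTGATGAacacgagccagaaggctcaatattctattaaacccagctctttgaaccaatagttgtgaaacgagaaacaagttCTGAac

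The libraries held between 9904056 and 14054746 counts. The mutated genes were read in every library, so neither was at 0 in its own strain. The ubp8 gene stood at 9.49 and 8.34 CPM (counts scaled to library size) in the untreated libraries labelled ubp8, against 33.9 and 34.1 CPM in untreated WT. The ubp16 gene stood at 22.2 and 25.0 CPM in the untreated libraries labelled ubp16, against 46.7 and 54.3 CPM in untreated WT. By edgeR's quasi-likelihood test these were log2 differences of -1.93 (adjusted p = 1.05e-06) and -1.10 (adjusted p = 4.54e-05), and the labels do not describe the alleles. "ubp8" and "ubp16" below therefore mean the libraries labelled so. Messages of both mating types were read in all strains. The summed level of the 6 M-cell markers ran from 85.8 to 92.4 CPM in untreated WT, from 109 to 136 in untreated ubp8 and from 208 to 260 in untreated ubp16. That of the 3 P-cell markers was 26 to 31.7, 31.1 to 32 and 37.4 to 39.5 CPM in the same order. After peroxide the M-cell sum was 53.3 to 55.2, 77.7 to 83.8 and 169 to 202 CPM, and the P-cell sum 8.49 to 10.2, 17.5 to 20.1 and 32.5 to 43.8 CPM. The part of these marker differences in the snoRNA results was not tested.

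Where a snoRNA gene lies in the annotation went with whether it was counted. All 15 genes that lie inside an exon of another gene on the same strand had 0 counts in all 12 libraries, which allows up to 3 counts in each, or 0.185 to 0.316 CPM by library. They were 10 short genes and 5 long H/ACA genes. The short ones were snoZ3, snoZ4, snoZ5, snoZ7 and snoZ8 inside the non-coding RNA snoZ, snR41, snR51b and snR70 inside SPNCRNA.723, snoZ30 inside SPNCRNA.1483 and snoR68 inside SPNCRNA.1650. The long ones were snR3, snR46, snR91, snR97 and snR98. The submitters' processing notes name HTSeq, a counter that in its default mode leaves out reads that overlap more than 1 gene. Which mode was used is not stated by any label, so the part of the counting rule in these 0 values was not tested. The host RNAs themselves were counted, and snoZ stood at 27.2 and 24.6 CPM in untreated WT. RefSeq also classes SPNCRNA.723, SPNCRNA.1483, SPNCRNA.1650 and the hosts of snR3, snR46, snR91 and snR98 as snoRNA genes. It lists SPNCRNA.723 as another name of snR41, snR51b and snR70, SPNCRNA.901 of snR91 and SPNCRNA.814 of snR98. A 0 at these members therefore does not mean that the locus went unread.

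The other 38 genes all had counts, but unequally. The 28 genes with no other gene on their strand held 97.2% of the snoRNA counts. The 10 genes inside introns held 2.84%, with mean counts per library of 1.83 to 47.8. These 10 are all short, and their hosts are the ribosomal protein gene rpl701, cpc2, ade4, gua1, spt20, pfd1, ero11, fta3, rlp7 and SPAC29A4.02c. Of the 53 genes, 30 passed the filter on low counts and were tested, namely 13 long genes, 9 short genes with no other gene on their strand and 8 intronic genes. The 8 genes with counts that did not pass were snR40, snoR54b, snoR58, snoU24, snr62, snR5, snR10 and snR96, with mean counts of 0.08 to 3.83 per library. In 27 of the 30 genes tested, and in all 13 long ones, both untreated WT libraries held at least 10 counts.

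**Figure D1:**
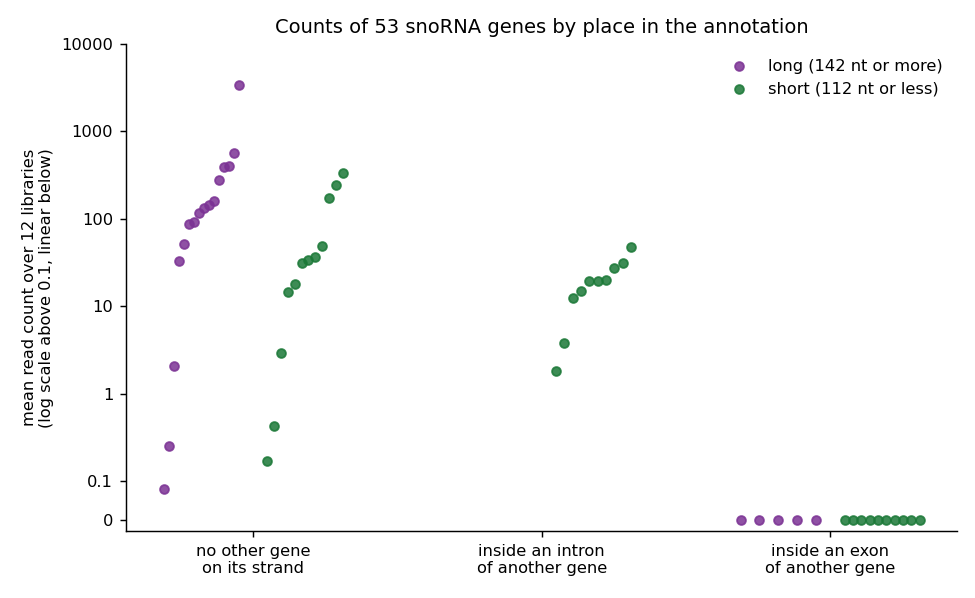
Mean read count over the 12 libraries (vertical axis, log scale above 0.1 and linear below) of each of the 53 snoRNA genes, by place in the annotation, with long genes in purple and short genes in green. All 15 genes inside an exon of another gene sit at 0, and the 10 intronic genes reach a mean of 47.8 counts at most.

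The H/ACA genes snR5, snR10 and snR96 have no other gene on their strand but were nearly uncounted, with means of 0.25, 0.08 and 2.08 counts per library. Each lacked an ACA near its annotated 3′ end and had it on the opposite strand, where 4 of the 21 long and 4 of the 32 short genes hold one (the fourth long gene, snR36, has it on both strands). The last 40 bases of both strands are shown, with the ACA in capitals.
snR5, as annotated: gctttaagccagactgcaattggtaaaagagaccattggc
snR5, opposite strand: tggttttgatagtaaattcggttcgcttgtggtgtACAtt
snR10, as annotated: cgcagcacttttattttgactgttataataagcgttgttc
snR10, opposite strand: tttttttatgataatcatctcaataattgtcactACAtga
snR96, as annotated: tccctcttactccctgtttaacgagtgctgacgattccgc
snR96, opposite strand: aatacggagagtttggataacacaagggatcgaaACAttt

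A non-coding RNA, SPNCRNA.7137, is annotated antisense to snR10 and was counted. It stood at 2.25 and 1.32 CPM in untreated WT and at 6.84 and 6.51 CPM in treated WT, a rise of 1.91 on the log2 scale (edgeR adjusted p = 0.000923). In ubp8 it fell by 1.64 (adjusted p = 0.00997). Which strand these 3 snoRNA genes are read from was not tested.

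A few RNAs made up most of what was read. The 12 most counted members held 90.7% of all snoRNA counts, and 9 of these 12 were long. snR30, which in budding yeast is needed for the processing of 18S ribosomal RNA rather than for a modification, held 48.6% of the counts, and sno16 held 8.2%. Per kilobase of gene, snR30 had a mean of 416 CPM in untreated WT, against 219 for snoU14, 191 for snr79, 183 for sno12 and 174 for snoZ16. These 5 were the highest in untreated WT per length. In treated WT, snR30 had 3870 CPM per kilobase, sno16 993, snr79 634 and snR95 597, and snoU14 stood at 169. In ubp16 snoU14 was the highest, at 336 untreated and 347 treated, before snR30 at 258 and 252. In untreated ubp8 snoU14, at 231, also lay above snR30, at 192.

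After peroxide a larger share of WT counts fell on snoRNA genes, while the shares of the mutants lay closer to their untreated values. Untreated WT libraries had 0.0368% and 0.0364% of their counts on snoRNA genes, and treated WT libraries 0.175% and 0.182%. In ubp8 the share went from 0.032% and 0.0313% to 0.0549% and 0.0557%. In ubp16 it was 0.0328% and 0.029% untreated and 0.0256% and 0.0272% treated. The 2 WT groups did not overlap, nor did the 2 ubp8 groups or the 2 ubp16 groups. As a share of unscaled library totals, ubp16 alone of the 3 strains was lower after treatment. The TMM factors that scale CPM were 1.13 and 1.017 in untreated ubp16 and 0.913 and 0.89 in treated ubp16. Over the library sizes so scaled, the snoRNA counts of the 2 ubp16 groups overlapped. The 95% Wilson intervals, which cover counting error only, ran for example from 0.0356% to 0.038% in the first untreated WT library and from 0.172% to 0.177% in the first treated one. With 2 libraries a group, a two-sided exact permutation test of a single value cannot give a p under 0.333, so none is given.

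**Figure D2:**
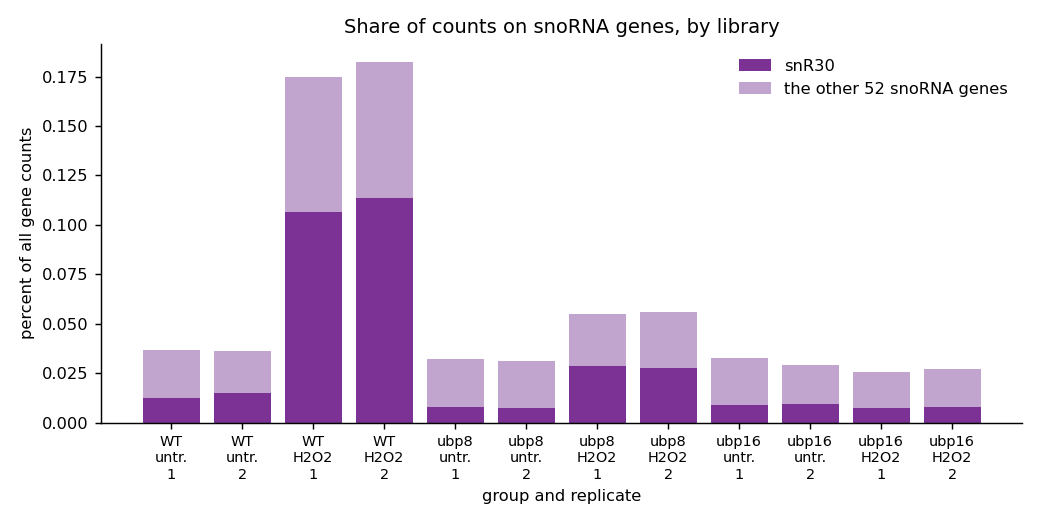
Percent of all gene counts on snoRNA genes (vertical axis) in each of the 12 libraries, with snR30 in dark purple and the other 52 genes in light purple. The 2 treated WT libraries, at 0.175% and 0.182%, stand above the other 10, of which the highest is at 0.0557%.

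Other RNAs that lack a poly(A) tail when mature were summed in the same libraries. The summed level of 9 of them, the spliceosomal snu1, snu2, snu4, snu5 and snu6, the signal recognition particle RNA srp7, the RNase MRP and RNase P RNAs mrp1 and rrk1 and the telomerase RNA ter1, was 83.6 and 85.1 CPM in untreated WT and 65.6 and 73.7 CPM in treated WT. In ubp8 it was 106 and 78.0 CPM untreated and 75.1 and 72.8 CPM treated. In ubp16 it was 108 and 102 CPM untreated and 96.4 and 95.4 CPM treated. Of the 7 genes tested on the fuller list, which also holds the U3 RNAs, 1 rose in WT (snu32, log2 fold change 1.22, edgeR adjusted p = 0.028) and 1 fell (rrk1, -0.61, adjusted p = 0.00671). Over all genes tested 26.2% rose and 27% fell in WT. In ubp8, rrk1 (-0.59) and ter1 (-0.41) fell, where 25.8% of all genes fell. In ubp16 the 7 log2 fold changes ran from -0.28 to 0.65, with adjusted p-values from 0.163 to 0.918. Ribosomal RNA genes took 0.00295% and 0.00359% of counts in untreated WT and 0.00268% and 0.00335% in treated WT, which overlap. Their share was lower in both mutants, at 0.0017% to 0.00228% in the ubp8 libraries and 0.000814% to 0.00119% in the ubp16 libraries. The part of this difference in the comparisons of mutants with WT was not tested.

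In WT, peroxide was followed by higher levels of nearly all long snoRNAs tested. Of the 30 members tested, 15 rose and 3 fell by edgeR's quasi-likelihood test at an adjusted p under 0.05, where 26.2% of all 8166 genes tested rose and 27% fell. Of the 13 long members 12 rose, with a median log2 fold change of 2.16 over the 13. The thirteenth, snR94, had 0.51 ± 0.27 (SE; adjusted p = 0.125). Of the 17 short members 3 rose and 3 fell, with a median of -0.326. Over all genes tested the median was -0.04.

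snR30 went from 118 and 153 CPM in untreated WT to 1186 and 1334 CPM in treated WT. This was a log2 fold change of 3.22 ± 0.13 (SE; adjusted p = 2.41e-11). sno16 went from 17.1 and 25.0 CPM to 170 and 202 CPM, a log2 fold change of 3.14 ± 0.18 (adjusted p = 6.35e-10). For both RNAs the lower treated library lay far above the higher untreated one. snR95, an H/ACA RNA, went from 15.6 and 14.2 CPM to 125 and 140 CPM, a log2 fold change of 3.15 ± 0.14 (adjusted p = 4.01e-11).

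The next long RNAs rose by less. snR36, in budding yeast a pseudouridine guide, went from 2.34 and 2.74 CPM to 13.3 and 15.6 CPM, a log2 fold change of 2.50 ± 0.32 (adjusted p = 4.25e-06). snR93 went from 5.37 and 3.53 CPM to 24.1 and 21.4 CPM, a log2 fold change of 2.36 ± 0.29 (adjusted p = 3.61e-06). snR42, whose budding yeast namesake guides pseudouridylation of 25S ribosomal RNA, went from 6.64 and 8.74 CPM to 34.6 and 35.0 CPM, a log2 fold change of 2.17 ± 0.21 (adjusted p = 2.01e-07). None of these groups overlapped. sno20 went from 12.9 and 17.5 CPM to 61.8 and 74.4 CPM, and sno12 from 30.6 and 38.9 CPM to 88.8 and 99.2 CPM, again without overlap. The remaining long members that rose were sno20 (2.16), snR90 (2.04), snR92 (2.01), snR33 (1.57), sno12 (1.44) and snR101 (0.83). snR90 differed between its treated libraries, at 46.3 and 24.3 CPM, both above the untreated 7.32 and 9.80 CPM. Without untreated WT replicate 2 the log2 fold change of snR101 was 0.56 (adjusted p = 0.0888) and it was no longer called.

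**Figure D3:**
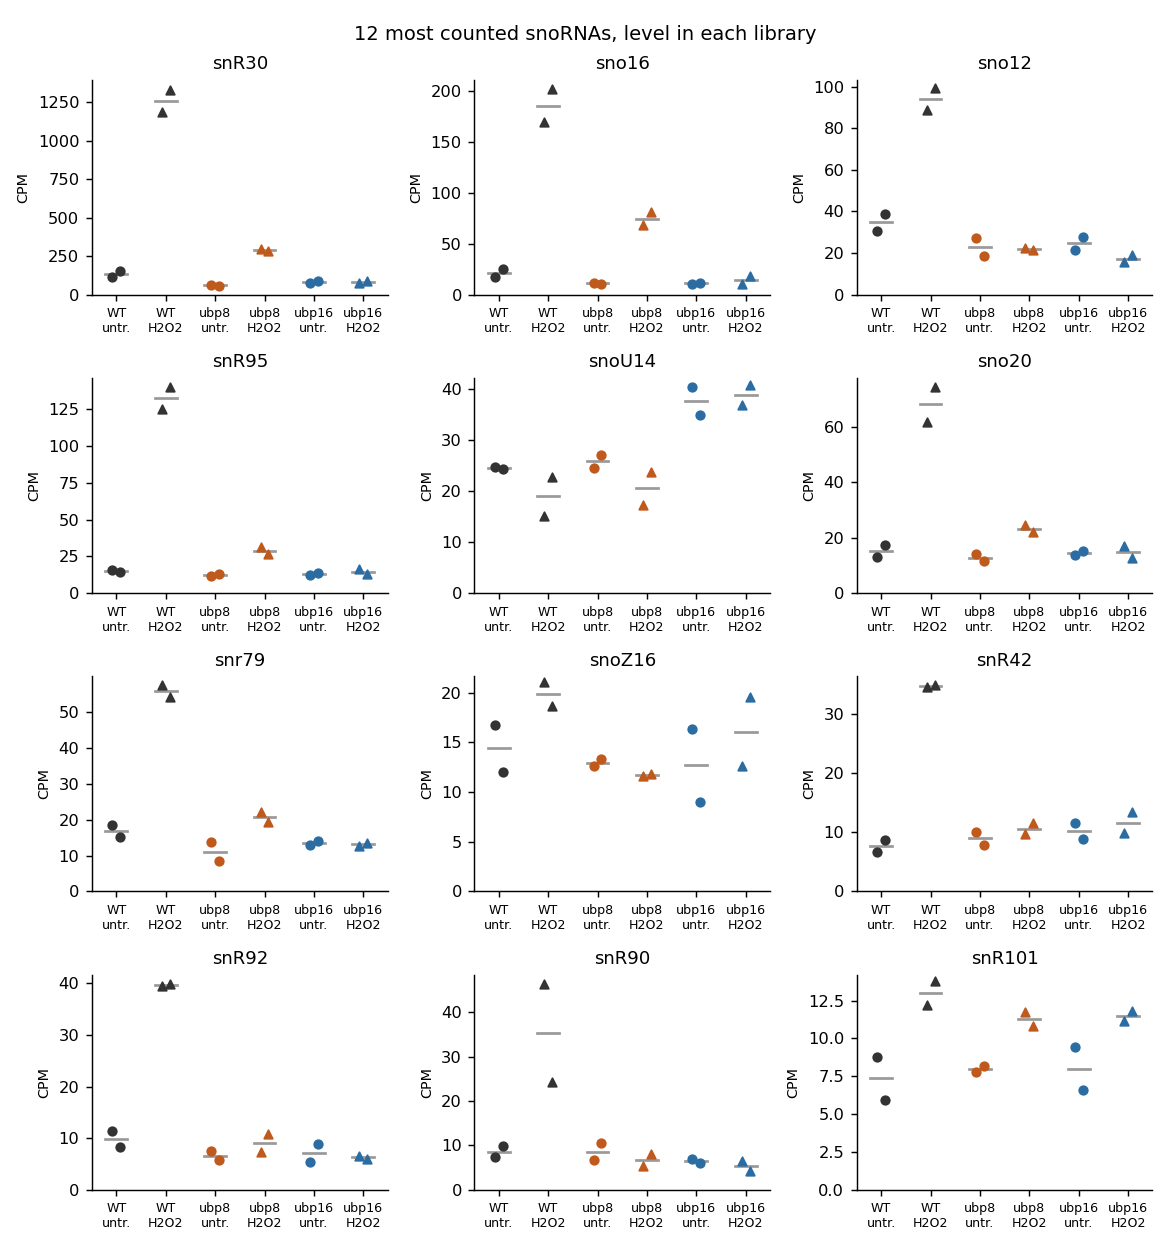
Level in CPM (vertical axis, linear from 0) of the 12 most counted snoRNAs in each library, with circles for untreated, triangles for treated libraries and a grey line at the mean of each group of 2. In 10 of the 12 panels, all but those of snoU14 and snoZ16, both treated WT libraries stand above the other 10 libraries. In the snoU14 panel the ubp16 libraries, at 34.9 to 40.9 CPM, stand highest.

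Among the short RNAs the rise was seen in a few. snr79 carries both a C and a D box, and its budding yeast namesake guides 2′-O-methylation of 18S ribosomal RNA. It went from 18.5 and 15.2 CPM to 57.5 and 54.1 CPM, a log2 fold change of 1.73 ± 0.18 (adjusted p = 4.89e-07). The other 2 that rose, sno52 (1.66 ± 0.42, adjusted p = 0.00295) and snoR02 (2.06 ± 0.72, adjusted p = 0.0238), had mean counts under 50 and are named because the count is small. Their treated libraries differed, at 9.47 and 4.74 CPM for sno52 and at 4.63 and 1.68 CPM for snoR02.

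The 3 that fell were snoR69b, snR88 and the intronic snoR47, all with mean counts under 50. snoR69b went from 7.52 and 6.53 CPM to 1.16 and 0.987 CPM, a log2 fold change of -2.70 ± 0.51 (adjusted p = 0.000268). Both treated libraries lay under both untreated ones. snR88 had -2.73 ± 0.84 (adjusted p = 0.0116) and snoR47, at 8.50 and 4.24 CPM untreated and 2.84 and 2.56 CPM treated, -1.23 ± 0.37 (adjusted p = 0.0107). Without untreated WT replicate 1 the count of snoRNAs that fell was 1. snoU14, the C/D RNA that in budding yeast is needed for 18S ribosomal RNA processing, stood at 24.7 and 24.4 CPM untreated and at 15.2 and 22.8 CPM treated, with a log2 fold change of -0.37 ± 0.19 (adjusted p = 0.109). Without treated WT replicate 2 it was -0.68 (adjusted p = 0.0142) and passed. snoZ16, which also has both boxes, had 0.47 ± 0.25 (adjusted p = 0.134).

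The pairs of RNAs that share a name as copies had the following values in WT. snoR69 and snoR69b, whose longest common run is 13 bases, had -0.36 ± 0.50 (adjusted p = 0.574) and the -2.70 given above. snoR39a had -0.90 ± 0.45 (adjusted p = 0.104) and snoR39b -0.34 ± 0.46 (adjusted p = 0.564), and they also share a run of 13 bases at most. Their differences from each other were not tested.

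In ubp8, snR30, sno16 and 3 other long RNAs rose after peroxide, and 8 short RNAs fell. Of the 30 members, 6 rose and 8 fell, where 28% of all genes tested rose and 25.8% fell, so the share that fell was near that of all genes. Of the long members 5 of 13 rose, and the median of the 13 was 0.445. They were sno16 (2.74 ± 0.19), snR36 (2.25 ± 0.33), snR30 (2.21 ± 0.13), snR95 (1.22 ± 0.14) and sno20 (0.86 ± 0.18), with edgeR adjusted p-values from 6.42e-10 for snR30 to 0.000564 for sno20. All 5 had also risen in WT.

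snR30 stood at 65.9 and 59.6 CPM in untreated ubp8 and at 297 and 284 CPM in treated ubp8. sno16 stood at 11.3 and 10.9 CPM untreated and at 68.1 and 81.2 CPM treated. The treated libraries lay above the untreated ones for both, and below the treated WT libraries. snR93, in contrast, stood at 6.24 and 4.63 CPM untreated and at 3.74 and 6.40 CPM treated, which overlap, with a log2 fold change of -0.12 ± 0.30 (adjusted p = 0.765).

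The short RNA that rose in ubp8 was snr79, from 13.7 and 8.46 CPM to 22 and 19.2 CPM, a log2 fold change of 0.90 ± 0.19 (adjusted p = 0.000679). The 8 that fell were all short and had mean counts under 50. The log2 fold changes were those of snoZ15 (-2.82), snoR02 (-2.54), snoR69b (-2.07), snoR69 (-2.02), snoR39a (-1.57), snoU24b (-1.27), snoR56 (-1.22) and snoR47 (-0.88), and 4 of them are intronic. snoR69 went from 4.29 and 4.39 CPM to 0.953 and 1.19 CPM, and snoZ15 from 1.495 and 2.10 CPM to 0.147 and 0.366 CPM. Of these 8, the response was lower than in WT by the interaction test for snoR02 (-4.60 ± 1.09, adjusted p = 0.0111). That rests on low and uneven counts. snoR02 held 9 and 7 counts in untreated WT, 44 and 17 in treated WT, 16 and 45 in untreated ubp8 and 7 and 1 in treated ubp8. The other 7 had interaction adjusted p-values from 0.0696 to 0.69. Without treated ubp8 replicate 2 the number that fell was 4.

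In ubp16 few snoRNAs changed. Of the 30 members 3 rose and 2 fell, where 25.2% of all genes tested rose and 25.2% fell. snR30 stood at 77.5 and 90.4 CPM untreated and at 78.8 and 85.7 CPM treated, with a log2 fold change of -0.03 ± 0.13 (adjusted p = 0.878). snR95 stood at 11.97 and 13.6 CPM untreated and at 16.2 and 12.8 CPM treated (0.19 ± 0.16, adjusted p = 0.329). The 2 groups overlapped for both RNAs. sno16 had 0.38 ± 0.22 (adjusted p = 0.178), and 0.73 (adjusted p = 0.0131) without treated ubp16 replicate 1. Without untreated ubp16 replicate 1, snR101 (0.79, adjusted p = 0.0239) and snoZ16 (0.83, adjusted p = 0.0196) passed as well.

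Among the long RNAs in ubp16, snR36 was the member that rose, from 0.779 and 0.777 CPM to 1.66 and 3.30 CPM, a log2 fold change of 1.65 ± 0.43 (adjusted p = 0.00465). Without treated ubp16 replicate 2 it was 1.09 (adjusted p = 0.0957). snR36 was thereby the 1 long RNA called higher in all 3 strains. sno12 fell by 0.51 on the log2 scale (adjusted p = 0.0365), a call that was lost when untreated ubp16 replicate 2 (-0.32, adjusted p = 0.244) or treated ubp16 replicate 1 (-0.35, adjusted p = 0.258) was left out. The other calls were sno52 (1.60 ± 0.49, adjusted p = 0.0119), snoR69 (1.19 ± 0.47, adjusted p = 0.0441) and the intronic snoR39a (-1.08 ± 0.43, adjusted p = 0.0448). Without untreated ubp16 replicate 1 the number that rose was 5, and without untreated ubp16 replicate 2 it was 1. The number that fell was 0 without treated ubp16 replicate 1.

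**Figure D4:**
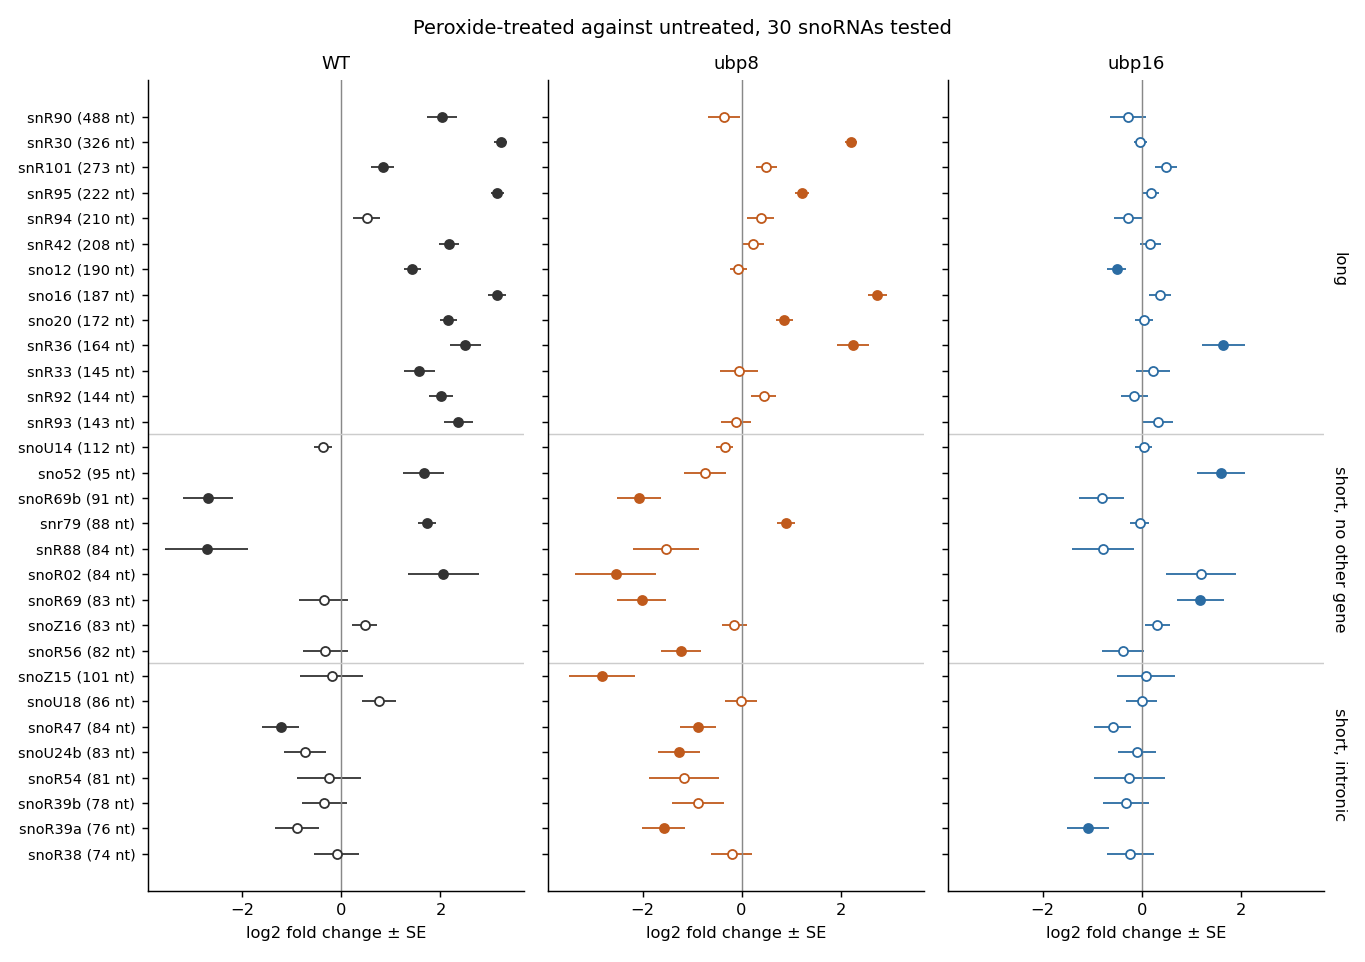
Log2 fold change of treated against untreated libraries (horizontal axis, ± SE from edgeR) of the 30 snoRNAs tested, in WT, ubp8 and ubp16, with lengths in nt and filled points for an adjusted p under 0.05. In the WT panel all 13 long RNAs lie to the right of 0, from 0.51 for snR94 to 3.22 for snR30, and in the ubp16 panel snR30 lies at -0.03.

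The responses of the strains were compared by the interaction term of the same fit, since a call in 1 strain and none in another does not show a difference. The response was lower in ubp8 than in WT for 12 of the 30 members and higher for 0, where 6.34% of all genes tested were lower and 10.5% higher. At an unadjusted p under 0.05 the number higher was still 0, as it was by DESeq2. In ubp16 the response was lower for 11 members and higher for 0, where 14.4% of all genes tested were lower and 13% higher. At an unadjusted p under 0.05, 2 were higher, and DESeq2 called 1. Of the 13 long members 9 had a lower response in ubp8 and 10 in ubp16. Of the 17 short members 3 did in ubp8 (snr79, sno52 and snoR02) and 1 in ubp16 (snr79). The ubp8 difference of snr79 was -0.83 ± 0.26 (adjusted p = 0.0387). That call was lost without either treated WT library or either treated ubp8 library. It was also lost without untreated WT replicate 2 (-0.77) and without untreated ubp8 replicate 1 (-0.43). The 2 comparisons share the WT libraries as their reference.

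The difference was greatest among the long RNAs in ubp16 for snR30, at -3.24 ± 0.18 (adjusted p = 2.77e-09), then for snR95 at -2.96 ± 0.21 (adjusted p = 4.43e-08) and sno16 at -2.76 ± 0.29 (adjusted p = 3.86e-06). In ubp8 it was -1.01 ± 0.17 for snR30 (adjusted p = 0.00168) and -1.93 ± 0.20 for snR95 (adjusted p = 2.89e-05). For sno16 it was -0.39 ± 0.26 (adjusted p = 0.326), which missed the threshold. The RNAs most lowered in ubp8 among those with a mean of at least 50 counts were snR93 (-2.48 ± 0.42, adjusted p = 0.00156) and snR90 (-2.39 ± 0.45, adjusted p = 0.00289). Of the long RNAs, 7 were called higher in WT and in neither mutant, and for each mutant the interaction passed for 6 of these. It did not pass for snR101, with -0.33 ± 0.31 for ubp8 (adjusted p = 0.506) and -0.33 ± 0.32 for ubp16 (adjusted p = 0.483). snR36 had -0.24 ± 0.47 for ubp8 (adjusted p = 0.766) and -0.85 ± 0.57 for ubp16 (adjusted p = 0.292). The snoRNA replicates spread more than those of all genes, with a median absolute log2 difference between the 2 libraries of 0.188 to 0.433 by group, against 0.149 to 0.202. The ubp8 count of lower responses moved between 8 and 16 when single libraries were left out.

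Before treatment the mutants differed from WT in few snoRNAs. In untreated ubp8, 5 of the 30 members were lower and 0 higher, where 23.8% of all genes tested were lower and 15.1% higher. At an unadjusted p under 0.05 the number higher was still 0, DESeq2 called 0 and limma-voom 1. In untreated ubp16, 4 members were lower and 1 higher, where 11.3% of all genes were lower and 14.3% higher. In untreated ubp8 the members were thus called lower no more often than all genes were. Of the 13 long members 4 (30.8%) were lower in each untreated mutant, against 23.8% (ubp8) and 11.3% (ubp16) of all genes. In each, 10 of the 13 had a negative log2 difference. The medians of the long members were -0.509 in ubp8 and -0.427 in ubp16, and those of the 17 short members -0.0237 and -0.157.

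snR30 was lower in both untreated mutants, with log2 differences of -1.11 ± 0.13 for ubp8 (adjusted p = 4.41e-05) and -0.69 ± 0.12 for ubp16 (adjusted p = 0.000627). Its highest mutant library, 90.4 CPM, lay under the lower WT library at 118 CPM. sno16 was also lower, with -0.92 ± 0.20 (adjusted p = 0.0033) and -0.94 ± 0.21 (adjusted p = 0.00376). Both sno16 calls were lost without untreated WT replicate 2, at -0.56 (adjusted p = 0.107) and -0.64 (adjusted p = 0.0788).

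sno12 was also lower in both, with -0.60 ± 0.18 for ubp8 (adjusted p = 0.0147) and -0.50 ± 0.18 for ubp16 (adjusted p = 0.0497). In untreated ubp8 the number lower was 2 without untreated WT replicate 2 and 2 without untreated ubp8 replicate 2. The sno12 calls were lost without untreated WT replicate 2, at -0.35 (adjusted p = 0.243) and -0.33 (adjusted p = 0.335). They were also lost without untreated ubp8 replicate 2 (-0.35, adjusted p = 0.188) and without untreated ubp16 replicate 1 (-0.33, adjusted p = 0.29). The remaining calls were snR33 (-1.14, adjusted p = 0.0191) and snr79 (-0.61, adjusted p = 0.0214) in ubp8, and snR36 (-1.70, adjusted p = 0.00832) and snoU14 (0.62, adjusted p = 0.0151) in ubp16. snr79 missed the threshold without either untreated WT library (-0.48, adjusted p = 0.123, and -0.68, adjusted p = 0.0555) and without untreated ubp8 replicate 2 (-0.30, adjusted p = 0.242). snR36 missed it without untreated WT replicate 2 (-1.58, adjusted p = 0.0529).

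After treatment most long RNAs were lower in both mutants than in WT. In treated ubp8, 15 of the 30 members were lower and 0 higher, where 15.7% of all genes tested were lower and 16.6% higher. The number higher was also 0 at an unadjusted p under 0.05, by DESeq2 and by limma-voom. In treated ubp16, 14 were lower and 1 higher, where 26.5% of all genes were lower and 28.7% higher. The number higher was 3 at an unadjusted p under 0.05, 2 by limma-voom, 4 without the filter on low counts, and 2 without treated WT replicate 1 or without treated ubp16 replicate 1. Of the 13 long members 11 were lower in treated ubp8 and 12 in treated ubp16, with medians of -2.10 and -2.44. For snR30 the log2 difference was -2.12 ± 0.12 for ubp8 (adjusted p = 1.4e-08) and -3.94 ± 0.14 for ubp16 (adjusted p = 3.88e-12).

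The long member called in neither mutant was snR101, at -0.21 ± 0.22 (adjusted p = 0.496) and -0.18 ± 0.22 (adjusted p = 0.497). snR94 had -0.63 ± 0.27 in ubp8 (adjusted p = 0.084) and was lower in ubp16 at -1.23 ± 0.29 (adjusted p = 0.00172). In treated ubp8, with a mean of at least 50 counts, snR90 (-2.40 ± 0.31), snR95 (-2.20 ± 0.13), snR93 (-2.18 ± 0.29), snR92 (-2.14 ± 0.24) and sno12 (-2.10 ± 0.18) were also lower. In treated ubp16 the log2 difference was -3.70 ± 0.19 for sno16, -3.19 ± 0.14 for snR95, -2.72 ± 0.33 for snR90, -2.65 ± 0.25 for snR92 and -2.55 ± 0.32 for snR36. Their adjusted p-values ran from 3.93e-11 for snR95 to 4.71e-06 for snR36 in ubp16 and up to 4.17e-05 for snR90 and snR93 in ubp8.

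snoU14 had another order of levels. It stood at 40.5 and 34.9 CPM in untreated ubp16 and at 36.8 and 40.9 CPM in treated ubp16. The other 8 libraries lay between 15.2 and 27.1 CPM and did not overlap these 4. Against treated WT the log2 difference was 1.03 ± 0.18 (adjusted p = 0.000155). Against untreated WT it was 0.62 ± 0.17, a call that was lost without either untreated WT library (adjusted p = 0.0576 and 0.0779) or without untreated ubp16 replicate 1 (adjusted p = 0.0919). Its response in ubp8 was -0.34 ± 0.18 (adjusted p = 0.114), and -0.66 (adjusted p = 0.0162) without treated ubp8 replicate 2. The ubp16 interaction was 0.41 ± 0.25 (adjusted p = 0.257), and 0.74 (adjusted p = 0.0499) without treated WT replicate 2. In treated ubp8 the difference from WT was 0.10 ± 0.19 (adjusted p = 0.715).

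Of the short RNAs, snr79, sno52, snoR02 and snoZ16 were lower in treated ubp8 and snr79 and sno52 in treated ubp16. snr79 had -1.43 ± 0.18 (adjusted p = 2.48e-05) and -2.09 ± 0.19 (adjusted p = 1.11e-07). snoZ16 in ubp8 had -0.76 ± 0.25 (adjusted p = 0.0306), a call that was lost without any 1 of the 4 libraries compared (adjusted p from 0.0655 to 0.138). The 8 intronic RNAs tested had low levels, from 0.147 CPM (snoZ15, treated ubp8) to 8.50 CPM (snoR47, untreated WT). None of the 8 intronic RNAs was called in any comparison of a mutant with WT by edgeR, while 2 of them reached an unadjusted p under 0.05 in treated ubp8 and 0 in the other 3 comparisons.

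**Figure D5:**
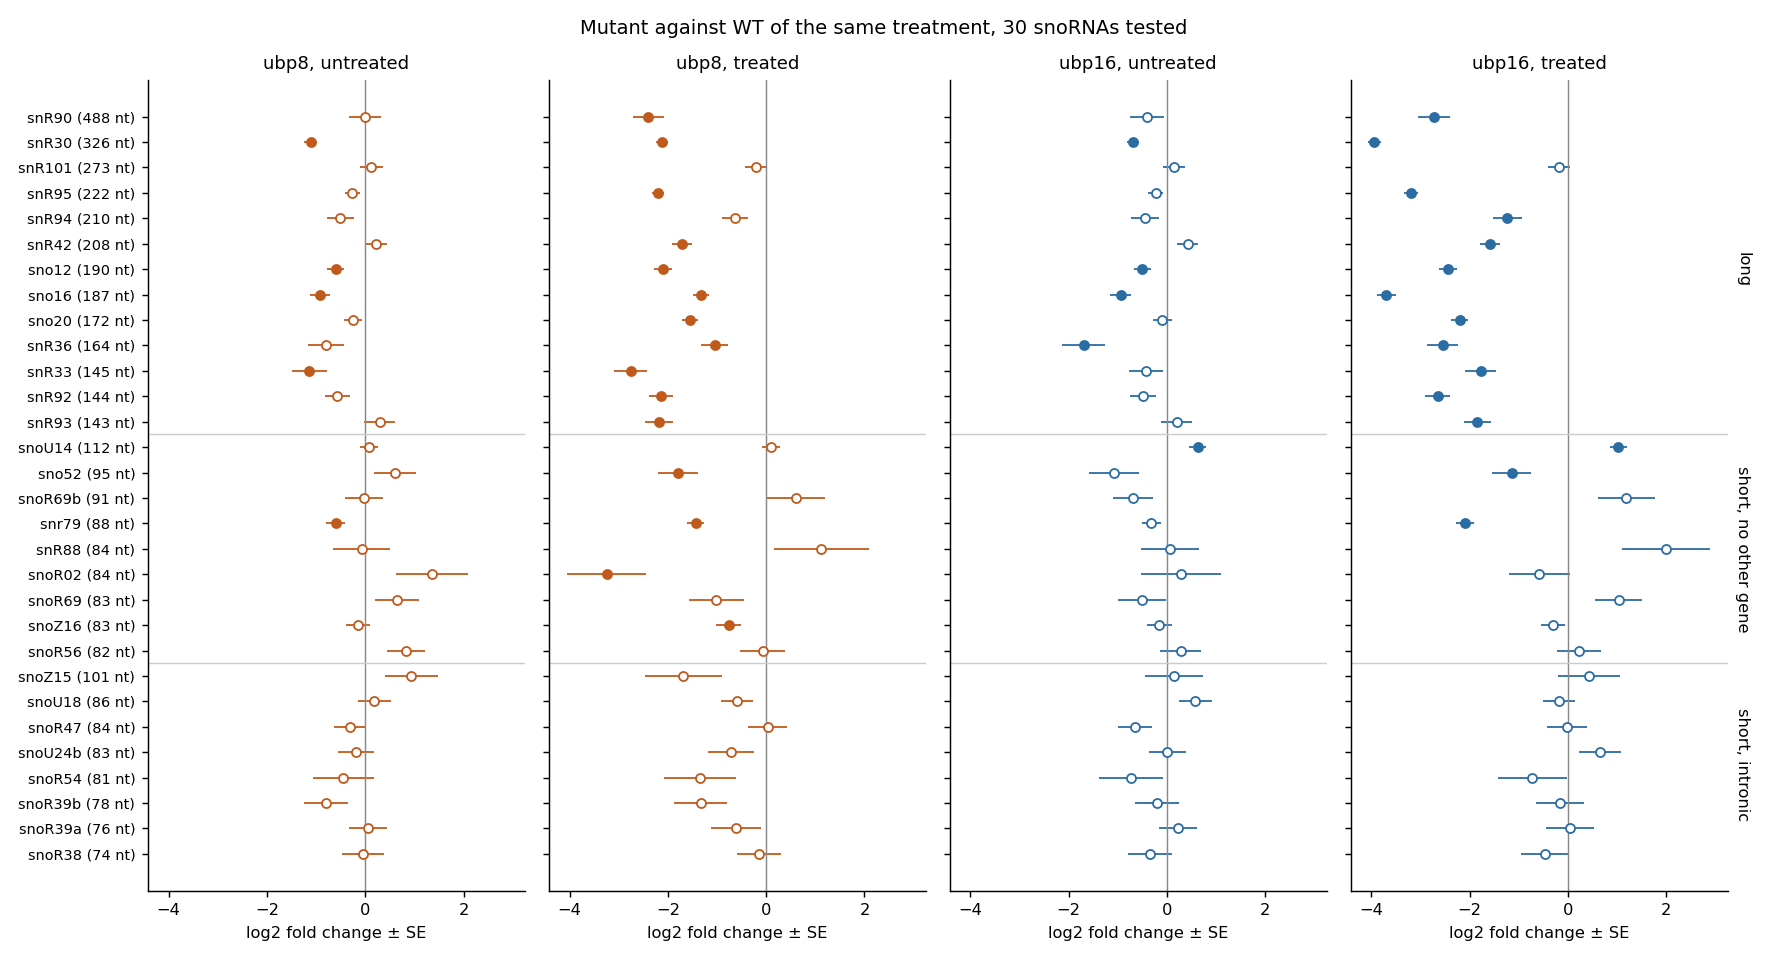
Log2 difference of ubp8 and ubp16 from WT of the same treatment (horizontal axis, ± SE from edgeR) for the 30 snoRNAs tested, with lengths in nt and filled points for an adjusted p under 0.05. In both treated panels all 13 long RNAs lie to the left of 0, with snR30 at -2.12 in ubp8 and -3.94 in ubp16, and snoU14 lies at 1.03 in treated ubp16.

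The RNAs that hold snoRNAs, or lie next to them, moved in several ways. RefSeq classes all the exonic hosts but snoZ and SPNCRNA.617 as snoRNA genes themselves, and some share a name with their snoRNA, as given above. Of the hosts of the uncounted exonic snoRNAs, SPNCRNA.814 (host of snR98) rose in WT by 1.87, SPNCRNA.901 (snR91) by 1.52, SPNCRNA.1394 (snR3) by 1.38 and SPNCRNA.1483 (snoZ30) by 0.66 on the log2 scale, with edgeR adjusted p-values from 8.86e-05 to 0.0232. The host snoZ had -0.11, SPNCRNA.617 -0.02, SPNCRNA.723 -0.17 and SPNCRNA.1650 0.91, none of which passed. In ubp8 the first 3 had 0.22, -0.05 and 0.17, and none passed, whereas SPNCRNA.1650 fell by 2.47 (adjusted p = 0.00107), snoZ by 0.96 (adjusted p = 0.000408) and SPNCRNA.617 by 0.73 (adjusted p = 0.0133). In ubp16 SPNCRNA.814 fell by 1.38 (adjusted p = 0.0182) and snoZ by 0.62 (adjusted p = 0.0133), and SPNCRNA.1483 rose by 0.63 (adjusted p = 0.0421). The hosts rlp7 and ero11 of the intronic snoR39a and snoU18 moved by nearly the same amount in the 3 strains, and no interaction passed for either. rlp7, which codes for a ribosome biogenesis protein, fell by 1.67, 1.64 and 1.60 in WT, ubp8 and ubp16, and snoR39a had -0.90, -1.57 and -1.08. ero11, which codes for an enzyme of disulfide formation, rose by 1.15, 1.16 and 1.16, and snoU18 had 0.76, -0.01 and 0.00. fta3, the host of snoR47, rose in WT by 0.61 (adjusted p = 4.75e-05) while snoR47 fell.

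Upstream neighbours on the same strand were read beside their snoRNAs, and those named here were picked after their values were seen. mag2, a DNA repair glycosylase gene upstream of snR92, rose by 3.54, 4.20 and 3.57 in WT, ubp8 and ubp16, while snR92 had 2.01, 0.45 and -0.15. SPNCRNA.242, upstream of snoR69b, rose by 1.99 in WT (adjusted p = 1.87e-08), where snoR69b fell by 2.70. SPNCRNA.1597, upstream of sno16, rose by 1.57, 0.37 and 0.58 in the same order of strains, while sno16 had 3.14, 2.74 and 0.38. rpl29, upstream of snR93, had -0.39, -0.21 and -0.46, of which the last passed, and snR93 had 2.36, -0.12 and 0.32. Some neighbours were called in the same direction as their snoRNA in WT. SPAC1B3.06c, upstream of snR90, rose by 0.81 (adjusted p = 9.94e-06), mcp60, upstream of sno52, by 0.57 (adjusted p = 0.000479) and gfa1, upstream of snR33, by 0.25 (adjusted p = 0.0257). In ubp8 and ubp16 SPAC1B3.06c had 0.88 and 0.88, and snR90 -0.36 and -0.28. There mcp60 had 0.20 and 0.07, and sno52 -0.74 and 1.60. For gfa1 the values were 0.64 and 0.23, and for snR33 -0.05 and 0.23. rnp24, upstream of snoR69, fell by 1.35, 1.12 (adjusted p = 1.16e-06) and 1.15 in WT, ubp8 and ubp16. snoR69 had -0.36, -2.02 and 1.19 in the same order. Whether reads of a neighbour ran into a snoRNA gene was not tested.

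SnoRNA genes that RefSeq lists under other identifiers, apart from the hosts above, gave further values. snoR61 rose in WT by 0.73 (adjusted p = 0.00249) and fell in ubp8 by 0.50 (adjusted p = 0.031). SPNCRNA.1709 rose in WT by 1.37 (adjusted p = 0.0078) and fell in ubp16 by 1.23 (adjusted p = 0.0267). The U3 genes snu3 and snu32, the C/D RNA of the small-subunit processome, had 0.92 and 1.22 in WT, of which the second passed. snR191 had -0.65 in WT (adjusted p = 0.525), fell in ubp8 by 3.15 (adjusted p = 0.00569) and had 0.96 in ubp16 (adjusted p = 0.324). SPNCRNA.498 had -0.48, 0.22 and 0.36, none of which passed.

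A HomolD box, a promoter element of fission yeast ribosomal protein genes, was searched as the letters CAGTCACA on both strands in the 250 bases before each gene. It was present before 9 of the 53 snoRNA genes (17.0%) and 6 of the 28 with no other gene on their strand (21.4%), against 1.54% of all genes, 2.62% of coding genes and 63.6% of genes named rpl or rps. Of the 9, sno20 rose in WT and ubp8, snR42 and snR90 rose in WT, and snoR02 rose in WT and fell in ubp8. The others were snoR56 and snoZ15, which fell in ubp8, snoR69, which fell in ubp8 and rose in ubp16, and snR41 and snR46, which had 0 counts. The match is a description, and binding was not measured.

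The messages of the snoRNA partner proteins did not rise with the RNAs. For the lists that follow, 26.2% of all genes tested rose and 27% fell in WT, 28% and 25.8% in ubp8, and 25.2% and 25.2% in ubp16. Of the 4 C/D proteins, 2 fell in WT, 3 in ubp8 and 4 in ubp16, and none rose. fib1, the methyltransferase fibrillarin, fell by 0.61, 0.72 and 1.18 on the log2 scale. Of the 4 H/ACA proteins, again 2, 3 and 4 fell. gar1 fell by 1.16, 1.27 and 1.84, and cbf5, the pseudouridine synthase, had -0.19, -0.18 and -1.02, of which the last passed. In treated ubp16 all 8 were lower than in treated WT, with list medians of -1.05 (C/D) and -1.07 (H/ACA). The 6 assembly factors tested were mixed, with 1 higher and 3 lower in WT, 3 and 3 in ubp8 and 0 and 4 in ubp16. naf1, which helps assemble H/ACA particles, fell by 0.58, 0.41 and 1.16.

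Genes for 3′ processing and decay of snoRNAs mostly fell in WT, where 27% of all genes tested fell and 26.2% rose. Of 9 genes listed for tailing and 3′ processing 1 rose and 7 fell in WT, 0 and 4 in ubp8 and 0 and 7 in ubp16. The 9 also held tgs1, a 5′ cap enzyme, and pof8, a telomerase RNA protein, which are not genes of that step. pof8 fell in all 3 strains (-0.98, -0.30 and -0.40), and tgs1 was called in none. cid14, the poly(A) polymerase of the nuclear decay pathway, was the 1 that rose in WT, by 0.31 (adjusted p = 0.00885). It had -0.06 in ubp8 and -0.26 in ubp16 (adjusted p = 0.027), and was lower in treated ubp8 (-0.50) and treated ubp16 (-0.90) than in treated WT. pab2 fell in WT by 0.29 (adjusted p = 0.0156) and had 0.18 in ubp8 and -0.05 in ubp16.

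Beside the shares of all genes given above, of 13 exosome genes 2 rose and 9 fell in WT, 3 and 10 in ubp8 and 3 and 10 in ubp16. rrp6, the nuclear exosome's own ribonuclease, fell by 1.40, 0.90 and 1.15 in WT, ubp8 and ubp16, and the response was higher in ubp8 than in WT by 0.50 (adjusted p = 0.0128). rrp41 fell by 2.01, 1.33 and 1.09. Of 15 genes for transcription termination and 3′ end formation 3 rose and 10 fell in WT, 5 and 5 in ubp8 and 1 and 7 in ubp16. In ubp8 these were near the shares of all genes, 28% and 25.8%. ssu72, a phosphatase of the termination machinery, fell by 2.10, 0.89 and 0.36, and the response was higher in ubp8 by 1.21 (adjusted p = 0.000976) and in ubp16 by 1.73 (adjusted p = 5.61e-06). swd22, of the same machinery, fell by 1.64, 0.57 and 0.42. Of 15 proteins of the U3 processome 14 fell in WT and 15 in each mutant, where 27% (WT), 25.8% (ubp8) and 25.2% (ubp16) of all genes fell. mpp10 fell by 1.96, 1.60 and 1.64. The part of these protein genes in the snoRNA levels was not tested.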

How the data were processed

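Polyadenylated RNA of 12 libraries was extracted with hot phenol and sequenced with a stranded mRNA kit, per the labels' protocols. The authors deposited raw counts per gene, for which the submitters' processing notes list STAR, HTSeq, Trimmomatic, FastQC and DESeq2. Versions, counting mode and genome build are not given in the sources used here. Depth was 9904056 to 14054746 counts per library.

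From these counts, edgeR 4.0.16 (R 4.3.3) scaled libraries by TMM, removed low genes (filterByExpr; 8166 kept) and fitted 6 group means to all 12 libraries. Quasi-likelihood tests were Benjamini-Hochberg adjusted over all genes tested, with 0.05 as threshold. CPM are per TMM-scaled library, and an SE is the log2 fold change over the root of F. Tested on simulated counts of the WT comparison (7704 genes kept), the fit recovered 72.4% of 2-fold and 88.5% of 4-fold changes and called 9 unchanged genes. In that simulation 194 of the genes kept were changed, whereas 26.2% of all genes tested rose and 27% fell in WT. Errors under so broad a response were not simulated. Alternatives used DESeq2 1.42.0 and limma-voom 3.58.1, other scalings and filters, a replicate block, and leaving out single libraries.

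Identifiers were matched, ignoring case, to RefSeq ASM294v3, for 12602 of 12683 genes and all 53 snoRNAs. Genes not matched held 0.0642% of counts. The members and gene lists were chosen with earlier results of these data known. Named were the 12 most counted snoRNAs, up to 6 per direction and comparison with the largest called change and a mean of at least 50 counts, list genes and copies. Others, short snoRNAs of low count among them, as well as hosts and neighbours, were chosen after their values were seen.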

Additional observations from a re-analysis of the deposited data

Results flagged for a closer look

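The response to peroxide differed between a mutant and WT for the following snoRNAs, by the interaction term of the edgeR fit. Listed for each mutant are at most 6 called RNAs, those with the largest difference among members with a mean of at least 50 counts. In ubp8 the difference (log2, mutant minus WT) was -1.50 for sno12, -1.94 for snR42, -2.39 for snR90, -1.57 for snR92, -2.48 for snR93 and -1.93 for snR95, with adjusted p-values from 2.89e-05 to 0.00791. In ubp16 it was -3.24 for snR30, -2.76 for sno16, -2.11 for sno20, -2.31 for snR90, -2.16 for snR92 and -2.96 for snR95, with adjusted p-values from 2.77e-09 to 0.00166. All of these RNAs are long. Each rose in WT, and in ubp16 none of the last 6 was called in its own response, although sno16 was (0.73, adjusted p = 0.0131) without treated ubp16 replicate 1. The 2 sets of differences share the WT libraries.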

How the results depend on the processing

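Among 1840 alternatives of 116 results for the snoRNAs named by rule, no called direction reversed and 70 changed the call, in 25 results. The 2-fold limit and the restriction to members with no other gene on their strand reuse the main fit. Neither could reverse a direction, and the restriction could not change the call of a single snoRNA. Single low-count snoRNAs named outside the rule were not rerun one by one. The counts of snoRNAs called, out of the members tested, moved as follows. Without a filter, higher counts were 1 (ubp8 against WT, untreated), 4 (ubp16 against WT, treated) and 2 (ubp16 interaction), and 1 fell in ubp16. With a mean of at least 50 counts, which leaves 15 members, 0 fell in WT, 0 in ubp8 and 1 in ubp16, 1 rose in ubp16, and 2 were lower in untreated ubp8. Median-of-ratios scaling gave 0 falling in ubp16, and library totals or coding-gene TMM 2 lower in untreated ubp8. Library totals shifted the median of all genes by -0.229 (WT), -0.384 (ubp8) and -0.302 (ubp16). DESeq2 gave 1 falling in ubp16 and 1 higher in the ubp16 interaction. Limma-voom gave 0 falling in ubp16, 1 higher in untreated ubp8 and 2 higher in treated ubp16. Fitting only the groups compared gave 1 falling in ubp16, 3 lower in untreated ubp8 and 2 higher in treated ubp16. Asking for 2-fold gave 1 falling in ubp16, 2 lower in untreated ubp8, and 0 higher and 1 lower in untreated ubp16. Members with no other gene on their strand gave 4 falling in ubp8 and 1 in ubp16. The cause of these moves was not tested, except where fewer members entered.

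With single libraries left out, 13 to 15 rose and 1 to 3 fell in WT, 6 rose and 4 to 6 fell in ubp8, and 1 to 5 rose and 0 to 2 fell in ubp16. Against WT, untreated ubp8 had 0 to 1 higher and 2 to 4 lower, untreated ubp16 0 to 1 and 3 to 6, treated ubp8 12 to 14 lower, and treated ubp16 1 to 2 higher and 13 to 14 lower. The interactions had 8 to 16 lower in ubp8, and 10 to 11 lower and 0 to 1 higher in ubp16. A replicate block gave 3 higher in treated ubp16 and 1 higher in the ubp16 interaction. The labels do not say that replicate numbers mark a shared culture or day, and with 2 numbers the samples were not taken as paired. Over 15 pairs of groups the correlation of replicate differences ran from -0.0886 to 0.191, with 5 over 0.1. Between untreated and treated libraries of a strain it was 0.112 (WT), 0.18 (ubp8) and 0.144 (ubp16). Low counts limit the short and intronic snoRNAs, whose SE reached 0.84 in the WT response.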
